A study of Mus musculus with 2 samples.

Results

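The glycolytic isozyme genes were examined in cultured primary brain pericytes (PCs) of the mouse. They were the 10 genes *Hk1*, *Hk2*, *Gpi1*, *Pfkl*, *Pfkm*, *Pfkp*, *Aldoa*, *Aldoc*, *Eno1* and *Eno2*, chosen by symbol among the 31053 genes listed for each library, where 11 identifiers carry the 10 symbols. Single cells were sequenced in droplets from an early culture at passage 5 (PC5) and a late culture at passage 20 (PC20), with 1 library each. By the study's methods, both cultures were grown from digested brains of wild-type female C57BL/6N mice aged 6 to 8 weeks, with 6 animals pooled for an isolation, first in endothelial growth medium and from passage 2 on in pericyte medium, and no treatment was given. The methods describe a separate isolation for each passage, so passage and isolation cannot be told apart. The cultures held no added endothelial cells, so they model PCs outside the vessel wall.

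Glycolysis splits glucose into pyruvate in the cytosol and yields ATP without oxygen. Several of its steps are carried out by isozymes, which are enzymes of the same reaction encoded by different genes with different tissue distributions and regulation, so the set of isozymes that a cell expresses is part of its metabolic identity. In the brain, *Aldoc* is a known astrocyte gene and *Eno2* a known neuron gene, *Hk1* is the common hexokinase, and many glycolytic genes are known targets of the transcription factor HIF-1, which is stabilised when oxygen is low.

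The cell filter required over 1000 genes and less than 20% mitochondrial UMIs and left 9950 of 10629 barcodes in PC5 and 4749 of 4884 in PC20, and 20 kept barcode sequences occurred in both libraries. A UMI marks 1 captured RNA molecule. In total 223054273 UMIs were read in PC5 cells and 191122251 in PC20 cells, with a median of 21700 and 33424 per cell. The deepest cell held 96888 UMIs in PC5 and 485943 in PC20. Levels are UMIs summed over kept cells per 1000000 UMIs (CPM). Shares of cells were counted after thinning each cell at random to 1 fixed number of UMIs in both libraries, which 8847 PC5 and 4474 PC20 cells reached and 1103 and 275 shallower cells did not. With 1 library per passage no test between passages could be made, and the 95% intervals given below cover counting error only. The label was checked against defining markers of PCs. *Pdgfrb*, the PDGF receptor of mural cells, had a UMI in 35.6% of thinned PC5 cells, against 4.78% of PC20 cells. *Cspg4* had one in 4.86% and 0.112%, and *Anpep* in 2.16% and 2.88%. *Rgs5* counted 405 UMIs in PC5, against 0 in PC20, and *Abcc9* 1 UMI in each library. On these RNA counts alone the cultures are therefore called PCs by their label. The study's methods name expression of PDGFRβ, the product of *Pdgfrb*, as its check of PC identity. The paper shows cultured cells stained for it, but at a passage other than those sequenced. That stain therefore does not show the protein in the cells of either library. Markers of other mural and connective tissue cells differed between the libraries too. The fibroblast markers *Pdgfra*, *Dcn* and *Col3a1* were at 88.6, 51.3 and 1158 CPM in PC5, against 0.131, 0.167 and 101 CPM in PC20. The smooth muscle marker *Tagln* was at 219 against 0.230 CPM, but *Acta2* was close in both, at 62.8 against 49.2 CPM. *Myh11* (0.206 against 0.068 CPM) and *Cnn1* (0.731 against 0.105 CPM) were low in both. *Pdgfra* had a UMI in 52.5% of thinned PC5 cells, more than *Pdgfrb*. Since these markers and the isozyme genes differ between the same 2 libraries, their part in the isozyme differences cannot be told apart from passage.

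All 10 isozyme genes had a higher CPM in PC20 than in PC5, where 51.1% of 10504 expressed genes did (expressed means a UMI in 10% or more of the cells of PC5 or of PC20). Of the 10, 6 were over 2-fold higher in PC20 (*Gpi1*, *Pfkl*, *Pfkp*, *Aldoa*, *Aldoc* and *Eno1*), against 19.1% of the expressed genes, and 0 were over 2-fold higher in PC5, against 17.9%. The 10 genes were chosen with earlier results of these data known, so these counts only describe them. The summed level of the 10 genes was 1214 CPM in PC5, against 4986 CPM in PC20. With a pseudocount of 1 on means of UMIs per 10000, which shrinks the ratios of low genes, 4 of the 10 were past 2-fold, and *Pfkl* (log2 ratio -0.63) and *Aldoc* (-0.85) were not. The median log2 ratio of PC5 over PC20 was -1.53 for the 10 genes and -0.04 for all expressed genes. The other 4, *Hk1*, *Hk2*, *Pfkm* and *Eno2*, differed by less than 2-fold.

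**Figure D1:**
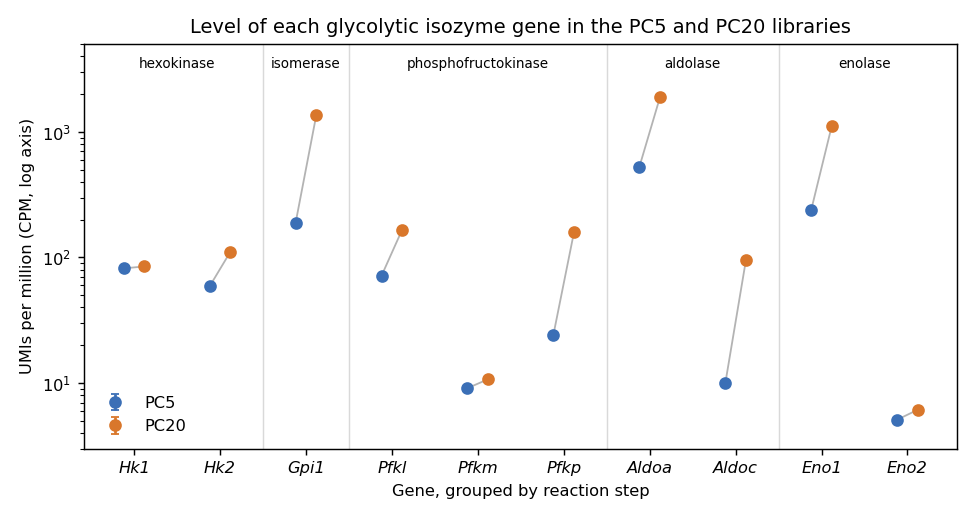
Level of each isozyme gene in PC5 and PC20, ordered by step, on a log axis in CPM with exact Poisson 95% intervals for counting error. The PC20 value lies above the PC5 value for all 10 genes, with the widest gaps for *Aldoc* (9.93 against 94.9 CPM), *Gpi1* and *Pfkp* and the narrowest for *Hk1*.

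The first step traps glucose in the cell as glucose-6-phosphate. Of the 4 steps with more than 1 examined isozyme, only here did the leading isozyme by summed UMIs differ between the libraries. *Hk1* (chr10:62268855-62379908, minus strand, GRCm38) had 81.8 CPM in PC5 (95% interval 80.7 to 83.0), against 84.8 CPM in PC20 (83.5 to 86.1). *Hk2* (chr6:82725025-82774454, minus strand), the insulin- and HIF-responsive hexokinase of muscle and of many cultured cells, had 59.0 CPM in PC5 (58.0 to 60.0), against 111 CPM in PC20 (109 to 112), 1.88-fold higher in PC20. The summed level of the step was 141 CPM in PC5, against 196 CPM in PC20, the smallest difference of the 5 steps at 1.39-fold. *Hk1* held 58.1% of the UMIs of the pair in PC5 (57.5 to 58.6) and 43.4% in PC20 (42.9 to 43.9), so that *Hk2* led in PC20 with 56.6%. The intervals of the libraries do not overlap, but they cover counting error only and not the spread between cultures. Under the alternative processing settings *Hk2* held 39.6% to 42.3% in PC5 and 56.2% to 57.1% in PC20. Some groups of cells lay outside these ranges. *Hk2* held 44.2% in PC5 cells with a UMI of the proliferation genes *Mki67* or *Top2a*. In the 140 PC20 cells without a UMI of *Car9*, a carbonic anhydrase gene, *Hk1* held 51.2% and *Hk2* 48.8% (41.7 to 55.9). These cells held only 201 hexokinase UMIs, so which isozyme led in them is not settled. They were also shallow, with a median of 9125.5 UMIs, against 34008 in PC20 cells with a *Car9* UMI. *Hk3* and *Hkdc1* were close to undetected, with at most 6 UMIs each in either library.

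Within single cells the same order was seen. Of 239 thinned PC5 cells with at least 5 hexokinase UMIs, *Hk1* had more UMIs than *Hk2* in 54.4% and fewer in 36.8%. Of 360 such PC20 cells, *Hk1* led in 33.9% and *Hk2* in 58.3%. Without thinning, 2494 PC5 and 3148 PC20 cells reached 5 UMIs, and *Hk2* led in 36.3% and 58.7% of them. Most of the difference between the libraries lay in *Hk2*, which had a UMI in 41.5% of thinned cells in PC5 and 64.3% in PC20, while *Hk1* had one in 56.8% and 55.4%.

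The second step, in which glucose-6-phosphate isomerase turns glucose-6-phosphate into fructose-6-phosphate, rests on *Gpi1* alone (chr7:34201330-34230336, minus strand). *Gpi1* had 189 CPM in PC5 (187 to 191), against 1352 CPM in PC20 (1347 to 1357), 7.15-fold higher in PC20. It had a UMI in 84.3% of thinned PC5 cells, against 99.9% of PC20 cells. This was the largest difference of the 5 steps.

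Phosphofructokinase commits the sugar to glycolysis by adding the second phosphate, and its 3 subunits, named for liver, muscle and platelet, assemble into tetramers of mixed composition. *Pfkl* (chr10:77986947-78010083, minus strand) had 71.6 CPM in PC5, against 166 CPM in PC20. *Pfkp* (chr13:6579768-6648777, minus strand) had 24.3 CPM in PC5 (23.7 to 25.0), against 159 CPM in PC20 (158 to 161), 6.56-fold higher. *Pfkm* (chr15:98092589-98132451, plus strand) had 9.11 CPM in PC5, against 10.7 CPM in PC20, and its exons overlap those of the same-strand gene *Gm26513*, so its level is uncertain. The step therefore differed in composition more than any other. *Pfkl* held 68.2% of its UMIs in PC5 (67.6 to 68.8) and 49.5% in PC20 (49.1 to 49.8), and *Pfkp* held 23.1% (22.6 to 23.7) and 47.4% (47.0 to 47.7). *Pfkl* led in both libraries over all kept cells, by a wide margin in PC5 and by a narrow one in PC20, while *Pfkm* held 8.68% and 3.19%. The PC20 lead was not kept in every group of cells. Among 4 groups of PC20 cells by depth, *Pfkp* held 49.2% and *Pfkl* 47.9% in the second shallowest, and *Pfkl* led in the other 3. Of 89 thinned PC5 cells with at least 5 UMIs of the step, *Pfkl* led in 80.9% and *Pfkp* in 6.74%. Of 1520 such PC20 cells, *Pfkp* led in 45.9% and *Pfkl* in 43.4%. Without thinning the order in PC20 was the other way, with *Pfkl* leading in 48.2% and *Pfkp* in 42.4% of 4050 cells.

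**Figure D2:**
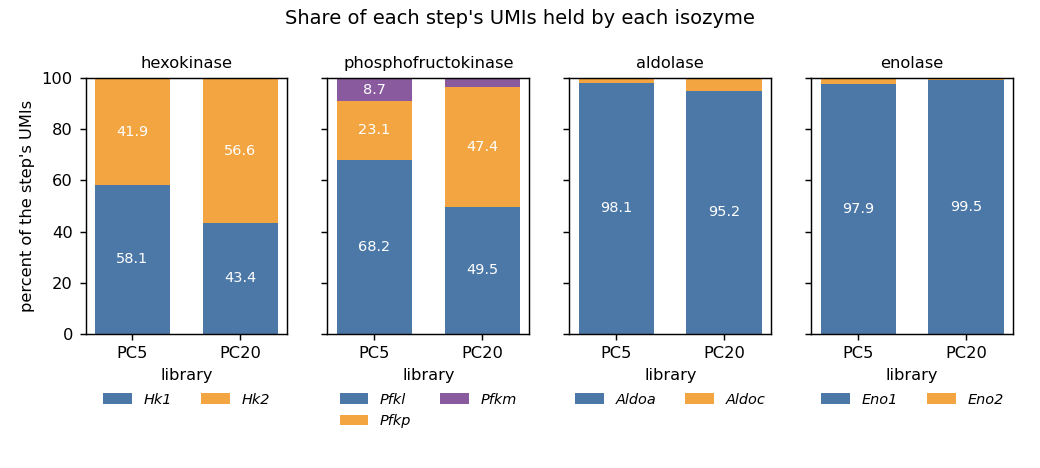
Share of the summed UMIs of each step held by each isozyme, in percent, for PC5 and PC20 in the hexokinase, phosphofructokinase, aldolase and enolase steps. *Hk2* passes *Hk1* in PC20 with 56.6%, and *Pfkp* goes from 23.1% to 47.4%. *Aldoa* and *Eno1* hold over 95% of the UMIs of the examined isozymes of their steps in both libraries. Other enolase genes are not counted in the figure.

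Aldolase cleaves fructose-1,6-bisphosphate into a pair of 3-carbon sugars. *Aldoa* (chr7:126795234-126800751, minus strand), the muscle and general form, was the most abundant of the 10 genes in both libraries, with 525 CPM in PC5 (522 to 528), against 1883 CPM in PC20 (1877 to 1889), 3.59-fold higher in PC20. *Aldoc* (chr11:78322968-78327781, plus strand), the brain form, had 9.93 CPM in PC5 (9.53 to 10.4), against 94.9 CPM in PC20 (93.5 to 96.2). Its ratio of CPM, 9.55, was the highest of the 10 genes, but with the pseudocount *Gpi1*, *Eno1*, *Aldoa* and *Pfkp* had larger log2 ratios. The share of *Aldoc* in the step was nevertheless small, at 1.86% in PC5 (1.78 to 1.94) and 4.80% in PC20 (4.73 to 4.86), and of the thinned cells with at least 5 UMIs of the step *Aldoa* led in 99.9% and 99.7%.

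*Aldoc* was uneven between cells, in part through single cells. Its Fano factor, the variance over the mean of thinned UMIs, was 1.93 in PC5 and 5.48 in PC20, against a median of 1.08 over the compared genes in each library. *Gpi1* followed in PC20 with 3.91, *Aldoa* with 2.56 and *Eno1* with 2.18, and the other 9 genes of PC5 lay at or under 1.38. Without the 1 cell with the most *Aldoc* UMIs, the *Aldoc* value was 1.29 in PC5, under *Aldoa* and *Eno1*, and 3.40 in PC20, under *Gpi1*. The Fano factor can rise with level, and the median was not taken over genes of like level. Mean thinned UMIs of *Aldoc* were 0.103 in PC5 and 1.08 in PC20, so the part of level in its Fano factors is not known. The 1% of cells with the most *Aldoc* UMIs held 20.1% of all *Aldoc* UMIs in PC5 and 13.0% in PC20. A single PC20 cell reached 103 thinned *Aldoc* UMIs, and the highest PC5 cell 25. In PC20 the level was 164 CPM in the cells without a UMI of the proliferation genes *Mki67* or *Top2a* and 77.9 CPM in those with one, and in PC5 it was 11.7 and 8.29 CPM. *Aldoc* was thus higher in PC20 in both kinds of cell. The part of the cell cycle in the difference between the cultures was not tested.

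Enolase makes phosphoenolpyruvate late in the pathway. *Eno1* (chr4:150236721-150248879, plus strand), the general form, had 239 CPM in PC5 (237 to 241), against 1118 CPM in PC20 (1114 to 1123), 4.68-fold higher in PC20. *Eno2* (chr6:124760053-124769673, minus strand), the neuronal form, had 5.11 CPM in PC5, against 6.14 CPM in PC20. *Eno1* held 97.9% of the UMIs of the pair in PC5 and 99.5% in PC20, and *Eno2* held 2.09% (1.97 to 2.22) and 0.546% (0.515 to 0.578). Some *Eno1* reads may be assigned to the near-identical copy *Eno1b*, which had 340 UMIs in PC5 and 1720 in PC20. The muscle form *Eno3* was not among the 10 genes but passed *Eno2* in PC20, with 1.44 CPM in PC5, against 64.4 CPM in PC20. With *Eno3*, *Eno4* and *Eno1b* counted as well, *Eno1* held 96.7% of enolase UMIs in PC5 and 93.3% in PC20. Its share was then lower in PC20, while its share of the pair with *Eno2* was higher.

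Markers of the cell types that these brain isozymes are known from were counted in the same cells. In PC5, *Eno2* had a UMI in 5.32% of the 2276 thinned cells with a UMI of *Snap25*, *Syt1*, *Nefl*, *Gap43* or *Stmn2*, and in 5.28% of the 6571 without. *Aldoc* had a UMI in 12.1% of the 634 thinned PC5 cells with a UMI of *Aldh1l1*, *Gfap* or *Aqp4*, and in 8.55% of the 8213 without. In PC20 only 12 and 2 cells had such UMIs. The PC5 split by neuron markers rests mainly on *Stmn2* and *Gap43*, with a UMI in 21.1% and 6.00% of thinned PC5 cells. *Nefl* had one in 0.509%, *Snap25* in 0.0565% and *Syt1* in 0.0452%. The split therefore does not pick out neurons. The part of other cell types in the levels was not tested further. Summed over the lists, the 8 neuron markers reached 114 CPM in PC5, against 5.47 in PC20, and the 6 astrocyte markers 288 against 328 CPM. *Slc4a4* and *Gja1* made up nearly all of the latter sums, with UMIs in 64.2% and 66.7% of thinned PC5 cells, against 82.9% and 55.2% of PC20 cells, and were not used to split the cells. The astrocyte marker *Slc1a3*, with a UMI in 4.09% of thinned PC5 cells and 4.49% of PC20 cells, was not used either. Nor were the neuron markers *Rbfox3*, *Syp* and *Tubb3*, the last with a UMI in 32.5% and 4.83%. In PC5, *Tubb3* (52.8 CPM) and *Stmn2* (52.6 CPM) made up most of the neuron sum. Of the astrocyte markers besides *Slc4a4* and *Gja1*, *Gfap* counted 97 UMIs in PC5, against 0 in PC20, and *Aldh1l1* 1640 against 5. *Aqp4* counted 28 against 1, but *Slc1a3* 1156 against 862. Among microglia markers, which these cultures should lack, *Ptprc* and *P2ry12* counted 1 UMI each in PC5 and 0 in PC20. *Csf1r* counted 116 UMIs in PC5, against 3 in PC20, and *Aif1* 9 against 1. *Cx3cr1* had a UMI in 2.18% of thinned PC5 cells and 0.246% in PC20, with up to 7 and 9 UMIs in a cell. *Eno2*, the lowest of the 10 genes, had one in 5.29% and 6.28%. The free RNA of *Eno2* itself was not measured.

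Isozymes of the same step were seen together in single cells. *Hk1* and *Hk2* were both seen in 23.9% of thinned PC5 cells (23.0 to 24.8) and 36.3% of PC20 cells (34.9 to 37.7). *Hk2* had a UMI in 42.0% of PC5 cells with an *Hk1* UMI (40.7 to 43.4) and 40.9% of those without (39.3 to 42.4). In PC20 the shares were 65.6% (63.6 to 67.4) and 62.9% (60.7 to 65.0). The shares lie close together in each library, and *r* between the genes, as defined below, was 0.02 in PC5 and 0.05 in PC20. *Pfkl* and *Pfkp* were both seen in 12.2% of PC5 cells (11.5 to 12.9) and 63.3% of PC20 cells (61.8 to 64.7). *Pfkp* had a UMI in 23.5% of PC5 cells with a *Pfkl* UMI and 20.5% of those without, and in 77.9% and 67.9% of PC20 cells. For this pair the intervals do not overlap in either library, and *Pfkp* was seen more often in cells with *Pfkl*. *Aldoa* and *Aldoc* were both seen in 8.76% and 48.0% of cells, and *Aldoc* without *Aldoa* in 4 PC5 cells and 0 PC20 cells, which allows 0.067% of the thinned PC20 cells. *Eno1* and *Eno2* were both seen in 4.63% and 6.26%. *Aldoa* had a UMI in 99.0% of thinned PC5 cells and 99.96% of PC20 cells, and *Eno1* in 88.9% and 99.8%. For these pairs the share with both therefore mostly follows the detection of *Aldoc* and of *Eno2*.

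**Figure D3:**
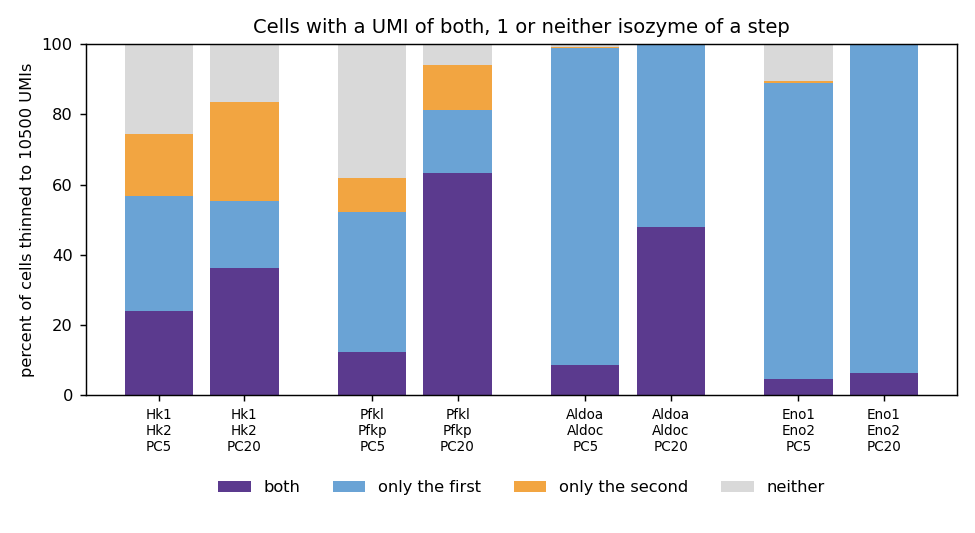
Share of thinned cells with UMIs of both, either or neither isozyme, in percent, for *Hk1* and *Hk2*, *Pfkl* and *Pfkp*, *Aldoa* and *Aldoc*, and *Eno1* and *Eno2* in PC5 and PC20. Cells with both *Pfkl* and *Pfkp* go from 12.2% in PC5 to 63.3% in PC20.

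A median of 5 of the 10 genes had a UMI in a thinned PC5 cell and 6 in a PC20 cell. A UMI of each of the 5 steps was found in 37.2% of PC5 cells, against 79.2% of PC20 cells, and UMIs of all 10 genes in 0 and 6 cells.

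Across cells of 1 library, Pearson's *r* of log(1 + thinned UMIs) was computed for the 45 pairs of genes, as a description, since cells of a library share their source. In PC5 the median *r* was 0.02 and the highest 0.12, for *Aldoa* and *Eno1*. In PC20 the median was 0.06 and 7 pairs reached 0.2, led by *Gpi1* and *Aldoa* (0.43), *Aldoa* and *Eno1* (0.35) and *Gpi1* and *Eno1* (0.30). Pairs of isozymes of 1 step reached at most 0.15, for *Aldoa* and *Aldoc* and for *Pfkl* and *Pfkp* in PC20. In PC20 the 95th percentile of *r* with all compared genes was 0.08 for *Gpi1* and *Aldoa* and 0.11 for *Eno1*. Thinning evens total UMIs but not the level of a gene. Mean thinned UMIs were 1.98 in PC5 and 14.7 in PC20 for *Gpi1*, 5.47 and 20.9 for *Aldoa*, and 2.53 and 12.2 for *Eno1*. Low counts limit *r*, so its size cannot be compared between the libraries.

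**Figure D4:**
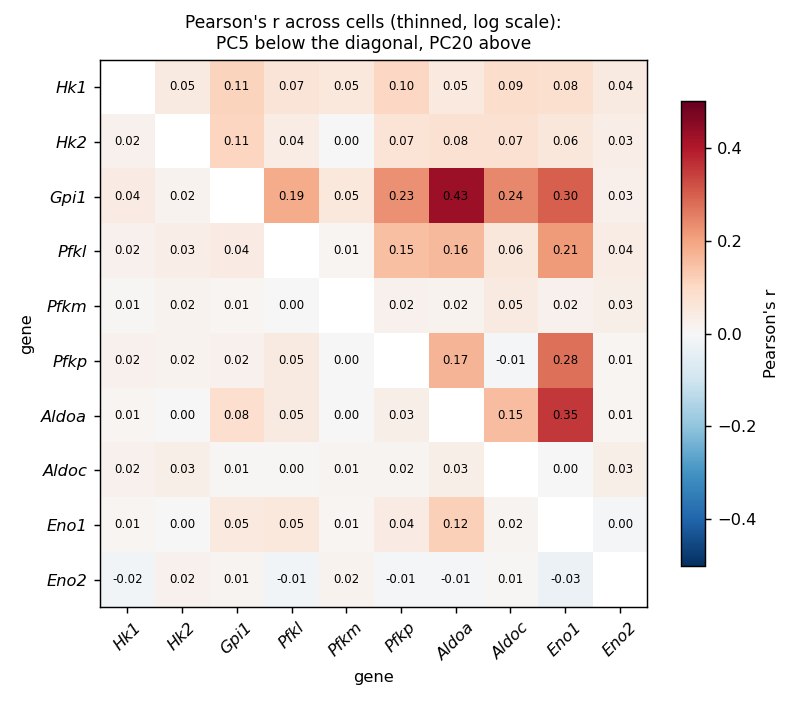
Pearson's *r* across thinned cells for each pair of the 10 isozyme genes in PC5 and in PC20, ordered by step. The PC5 values stay at or under 0.12, and the PC20 values are highest among *Gpi1*, *Aldoa* and *Eno1*, at 0.30 to 0.43.

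The genes with the most similar pattern across cells were taken for members with a UMI in at least 50% of thinned cells, as the 3 genes with the highest *r* where this reached 0.2. None reached 0.2 in PC5. In PC20, *Gpi1* was most like *Bsg* (*r* = 0.51), which encodes the chaperone of lactate transporters, the glycolytic enzyme gene *Gapdh* (0.44) and *Aldoa* (0.43). *Eno1* was most like *Pkm* (0.48), *Ldha* (0.47), which encode pyruvate kinase and lactate dehydrogenase, and *Ppia* (0.42). *Pfkp* was most like *Pkm* (0.30), *Ero1l* (0.30), an endoplasmic reticulum oxidase, and *Ldha* (0.29), and *Pfkl* like *Pkm* (0.23) and *Ero1l* (0.22). *Hk1* and *Hk2* had no neighbour above 0.16. *Aldoc* fell below the required share of cells in both libraries. Its neighbours in PC20, picked after their values were seen, were *Ctla2a* (0.42), *Mgp* (0.41), *Spp1* (0.38) and *Ogn* (0.37), of which none is glycolytic.

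Among 25 other glycolysis genes, a list chosen with earlier results of these data known, 14 were expressed. Of the 14, 7 were over 2-fold higher in PC20, against 19.1% of all expressed genes, and 1 over 2-fold higher in PC5, against 17.9%. The glucose transporter gene *Slc2a1* had 22.3 CPM in PC5, against 125 CPM in PC20, and *Gapdh* 910 and 2907 CPM. *Pfkfb4*, which makes or removes the activator of phosphofructokinase, was the expressed gene over 2-fold higher in PC5, with 10.7 CPM, against 2.54 CPM in PC20. Below the detection minimum, *Slc2a3*, another glucose transporter gene, was at 4.47 against 0.413 CPM and *Pfkfb2* at 3.04 against 0.382 CPM, also higher in PC5. Of the 14, 10 were higher in PC20 by any size, against 51.1% of all expressed genes, and 4 in PC5.

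HIF-1 targets outside glycolysis were compared because several isozyme genes are known targets. Of 14 such genes, 13 were higher in PC20, against 51.1% of all expressed genes, and 11 over 2-fold higher, against 19.1%. This list too was chosen with earlier results of these data known, so the counts only describe it. *Car9*, a carbonic anhydrase, was at 0.664 CPM in PC5, against 414 CPM in PC20, and *Adm* was over 2-fold higher in PC5. Cells of each library were split into 4 groups of equal size by their summed thinned UMIs of these 14 genes. In PC20, mean thinned UMIs in the highest over the lowest group had a ratio of 1.96 for *Gpi1*, 1.92 for *Pfkp*, 2.01 for *Aldoc*, 1.72 for *Hk2*, 1.69 for *Hk1*, 1.44 for *Pfkl*, 1.37 for *Eno1* and 1.35 for *Aldoa*. In PC5 the ratio was 2.46 for *Aldoc*, 1.58 for *Hk2*, 1.49 for *Pfkp*, 1.44 for *Pfkl*, 1.34 for *Hk1*, 1.20 for *Gpi1*, 1.13 for *Aldoa* and 1.11 for *Eno1*. For *Eno2* it was 1.64 in PC20 and 1.31 in PC5, and for *Pfkm* 1.35 and 1.25. Genes that differed by less than 2-fold between the libraries thus also rose with these sums. *Eno3*, which was higher in PC20, had a ratio of 0.94 in PC20 and 0.68 in PC5. The ratio for genes at large was not tested. In PC20 the *Pfkp* share of its step went from 42.8% in the lowest to 50.2% in the highest group. *Pfkp* therefore led in the highest group, where *Pfkl* held 47.0%. The groups are compared within a library only, since the sums weigh different genes. *Adm* was at 334 CPM in PC5, against 129 CPM in PC20, and *Car9* as given above.

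**Figure D5:**
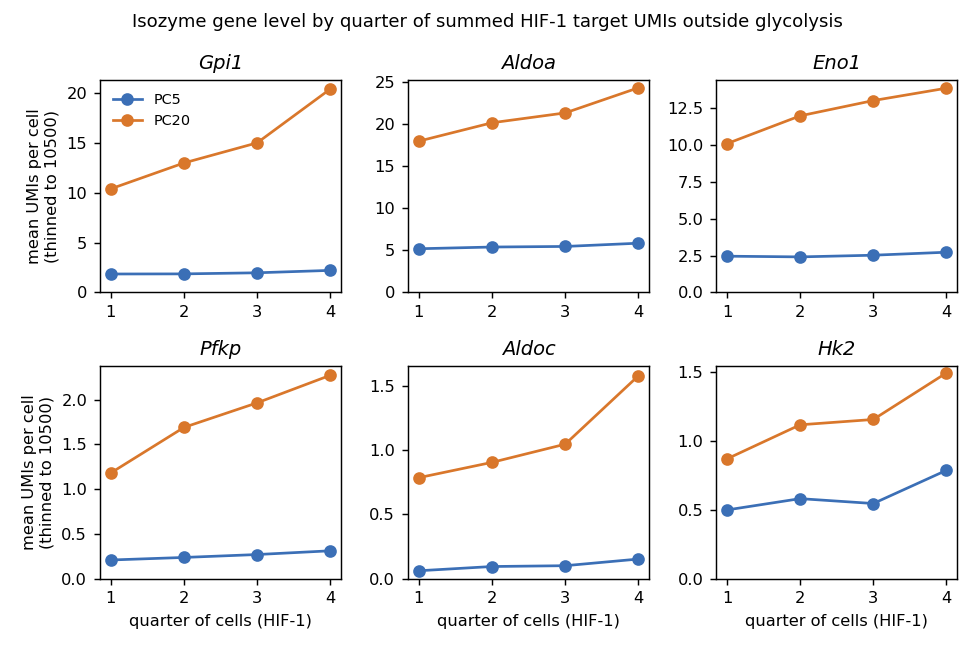
Mean thinned UMIs per cell of isozyme genes in 4 groups of cells ordered by summed UMIs of 14 HIF-1 targets outside glycolysis, from lowest (1) to highest (4), for PC5 and PC20. *Gpi1* goes from 10.4 to 20.5 in PC20 and lies between 1.86 and 2.22 in PC5.

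The promoters of the genes are shown because the HIF-1 targets moved with several of them. RefSeq windows from 250 bases before to 50 bases after a transcript start (GRCm38.p6) were found for all 10 genes, 19 windows in all, and searched on both strands for ACGTG and GCGTG, the core letters of HIF-1 binding sites. A window of 8 of the 10 genes held at least 1, as did 14 of the 19 windows and 43.8% of 32851 windows of all genes. Some windows of *Eno1*, *Aldoa* and *Pfkm* overlap, so the same site is counted in more than 1 window. The share over all genes is by window and is no measure for the count by gene. A match is only a run of letters. The windows of *Hk2* (chr6:82774405-82774704, minus strand), *Gpi1* (chr7:34230287-34230586, minus strand), *Pfkp* (chr13:6648722-6649021, minus strand) and *Aldoc* (chr11:78322823-78323122, plus strand) are printed because these genes differed most between the libraries or set the leading isozyme. Capitals mark the core on either strand, of which *Hk2* has 2, *Gpi1* 0, *Pfkp* 4 and *Aldoc* 3. The most cores of the 19 windows, 5, were in a window not printed, of *Hk1*, which differed least between the libraries. A window of *Pfkm*, which differed by less than 2-fold, held 3, and a further *Aldoc* window 1. Whether cores go with the levels was not tested.
Hk2: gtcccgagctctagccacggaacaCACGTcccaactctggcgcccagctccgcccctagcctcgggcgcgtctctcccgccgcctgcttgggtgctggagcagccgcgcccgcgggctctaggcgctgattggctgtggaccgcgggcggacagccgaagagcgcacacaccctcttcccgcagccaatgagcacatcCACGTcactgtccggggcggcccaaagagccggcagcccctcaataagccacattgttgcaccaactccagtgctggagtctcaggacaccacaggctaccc
Gpi1: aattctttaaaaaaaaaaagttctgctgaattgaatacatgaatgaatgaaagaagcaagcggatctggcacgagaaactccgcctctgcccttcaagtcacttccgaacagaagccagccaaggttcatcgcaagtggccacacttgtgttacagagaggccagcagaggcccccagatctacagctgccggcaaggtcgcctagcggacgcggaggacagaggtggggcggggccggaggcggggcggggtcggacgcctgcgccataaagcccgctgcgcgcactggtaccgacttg
Pfkp: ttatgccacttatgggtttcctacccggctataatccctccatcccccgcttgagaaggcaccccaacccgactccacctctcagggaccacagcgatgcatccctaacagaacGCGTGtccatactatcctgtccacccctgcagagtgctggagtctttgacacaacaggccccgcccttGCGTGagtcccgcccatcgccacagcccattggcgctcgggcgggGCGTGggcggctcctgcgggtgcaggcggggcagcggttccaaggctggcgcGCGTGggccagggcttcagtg
Aldoc: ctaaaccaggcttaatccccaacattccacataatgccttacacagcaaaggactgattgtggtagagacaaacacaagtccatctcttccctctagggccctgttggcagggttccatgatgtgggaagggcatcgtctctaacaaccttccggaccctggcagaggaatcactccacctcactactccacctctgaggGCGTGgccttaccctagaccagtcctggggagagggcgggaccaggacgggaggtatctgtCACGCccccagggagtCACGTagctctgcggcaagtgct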

How the data were processed

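Single-cell RNA of 1 PC5 and 1 PC20 library of mouse brain PCs was used. Deposited were raw UMI counts by gene and barcode, which the authors made with Cell Ranger (5.0 in the submitters' processing notes, 5.0.1 in the file header) on mm10, calling cells and applying no normalization. Libraries were grouped by passage as labelled. CPM was computed from UMIs summed over kept cells, which weights deep cells more. Since 3' UMIs count molecules and not length, isozymes were compared by UMI shares. Intervals at 95% were exact Poisson for CPM, conditional binomial for ratios and Clopper-Pearson for shares. The floor for a count of 0 was 3. Genes were located with GENCODE release M21. *Aldoa* was read from the identifier at chr7:126795234-126800751, and the other was kept apart. No doublet caller was run. Python 3.11.15, numpy 2.4.6, scipy 1.17.1, pandas 2.3.3 and matplotlib 3.10.9 were used, and ratios were tested on simulated data.

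The members and gene lists were chosen with earlier results of these data known. Named genes were all 10 members, neighbours with *r* of at least 0.2 and list members that a sentence needs. Alternatives were stricter and absent cell filters, leaving out cells with *Mki67* or *Top2a* UMIs or the deepest cells, thinning, other library sizes, centring, weights, pseudocount and detection minimums. After seeing the data, 7 were added (barcodes found in both libraries left out, both *Aldoa* identifiers summed, other enolases counted, the 2 cells with the most *Aldoc* UMIs left out, the pseudocount for counts of genes, the Fano factor without the highest cell, and leading isozymes in thinned cells). No test was made because each passage has 1 library. A few genes of the lists are not reported here.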

Additional observations from a re-analysis of the deposited data

Results flagged for a closer look

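A second identifier also named *Aldoa*, at chr7:126800790-126809108 and outside the levels above, had 119 UMIs in PC20 and 1 UMI in PC5. It was marked because it holds signal that no comparison used.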

How the results depend on the processing

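All 10 genes were higher in PC20 under every alternative run. By summed or mean UMIs, 3 of 4 steps also kept the same leading isozyme in both libraries. Counted by thinned single cells with at least 5 UMIs of the step, the phosphofructokinase leader differed as well. There *Pfkl* led in 80.9% of PC5 cells, but in PC20 *Pfkp* led in 45.9% and *Pfkl* in 43.4%. Of 120 values of the genes' log2 ratios 43 moved beyond the interval of the main value, and 0 reversed in sign. Of 166 isozyme shares 33 moved, and of 80 shares of cells with both isozymes of other pairs 18. With all enolases counted, the *Eno1* share differed in the other direction, at 96.7% in PC5 and 93.3% in PC20. The median log2 ratio of the 10 genes was -1.70 in cells without *Mki67* or *Top2a* UMIs, -1.58 without the 5% deepest cells, -1.60 in thinned cells, -1.51 with mitochondrial and ribosomal protein genes left out of the library size, -1.49 after centring and -0.74 with a pseudocount of 1. Without *Mki67* or *Top2a* UMIs 7 genes were over 2-fold higher, *Hk2* being the added one at -1.04, and with the pseudocount 4 were, *Pfkl* and *Aldoc* falling below. *Aldoc* went from -3.26 to -0.85 and from the highest ratio to the fifth. The share of all genes over 2-fold higher in PC20 was 14.1% to 20.4% under other detection minimums. *Hk1* and *Hk2* were both seen in 49.9% of PC5 and 79.4% of PC20 cells without thinning, and in 39.4% of PC20 cells without *Mki67* or *Top2a* UMIs. No paired analysis was possible because each passage has 1 library, and no library could be left out. Depth limits *Eno2*, *Pfkm* and *Aldoc* in PC5, whose shares of cells are low.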
